A study of Drosophila melanogaster with 4 samples.

Results

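Clusters of trimethylated lysine 36 of histone H3 (H3K36me3) on chromosome 4, on the assembled heterochromatic sequences and on the unplaced scaffolds of the Drosophila melanogaster genome are described here. They were taken by sequence name from the authors' combined list of enriched clusters. Of 4026 enriched clusters in that list, 207 lay on these 8 sequences: 82 on chromosome 4, 76 on the 6 heterochromatic sequences (30 on 2RHet, 22 on 3LHet, 13 on 3RHet, 5 on YHet and 3 each on 2LHet and XHet) and 49 on U, the sequence into which scaffolds of unknown chromosome were joined. The remaining 3819 lay on the 5 long arms X, 2L, 2R, 3L and 3R. The chromatin came from nuclei of heads of mixed adults of the wild-type strain Oregon-R-modENCODE, raised in population cages and separated with sieves, with no treatment named. There were 2 libraries precipitated with an Abcam antibody against H3K36me3 and 2 input libraries. Each precipitated library had a list of its own, called replicate 1 and replicate 2 here, and the combined list covered the replicate set. The labels do not say whether the replicates were separate fly collections, so an SD with n = 2 is the spread between these lists and may be technical. Head nuclei hold many cell types, so a weak cluster and a cluster carried by few cells cannot be told apart.

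H3K36me3 is laid down in the bodies of genes while RNA polymerase II transcribes them, in flies chiefly by the methyltransferase Set2, and marks exons and the later part of active genes. Chromosome 4, the smallest fly autosome, is packed with repeats and with the heterochromatin protein HP1a, yet its genes are transcribed, and the protein POF binds them along the chromosome. The Het sequences are the part of centromeric heterochromatin that was assembled in release 5, and YHet belongs to the Y, which is heterochromatic along its length. Genes within fly heterochromatin are few and often have long introns filled with transposable elements.

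Chromosome 4 was the sequence most densely covered by clusters, and the heterochromatic sequences and U were the least. Clusters covered 46.0% of chromosome 4 in replicate 1 and 46.5% in replicate 2, against 19.7% of the long arms in each. The Het sequences were covered to 2.16% and 2.20%, and U to 0.954% and 0.914%. Shares and densities were taken over full sequence lengths, and no rule for repeatedly mapping reads is named. Sequence without the mark and sequence without placed reads therefore cannot be told apart, on Het and U or in any cluster-free stretch below. Both replicates placed the sequences in the same order, with chromosome 4 above the long arms and Het and U below them. Chromosome 4 stood 26.5 ± 0.343 percentage points above the long arms, the Het sequences 17.5 ± 0.00110 points below and U 18.8 ± 0.0558 points below (SD of the difference, n = 2). These differences exceeded the spread between replicates many times over. An exact sign-flip test over 2 libraries cannot give a p below 0.5, so no p-value is given for any difference between sequences.

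The number of clusters followed the covered share, and among the heterochromatic sequences XHet stood apart. Chromosome 4 carried 58.4 and 57.7 clusters per Mb in replicates 1 and 2, the Het sequences 6.25 and 6.03, U 3.28 and 3.08, and the long arms 31.3 and 31.6. XHet, with 204 kb the shortest of the 6, was covered to 10.1% and 10.0% by its 3 clusters. The other 5 ran from 1.16% (YHet, replicate 2) to 2.56% (2LHet, replicate 2). When only the higher-scoring 50% of clusters were kept, the difference from the long arms was 12.2 clusters per Mb on chromosome 4, -15.4 on Het and -14.9 on U, against 26.7, -25.3 and -28.2 over all clusters. Keeping 50% lowers the long-arm density by construction, so these differences are not on the scale of those over all clusters. A value for XHet, 2LHet or YHet rests on 2 to 3 clusters per replicate.

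**Figure D1:**
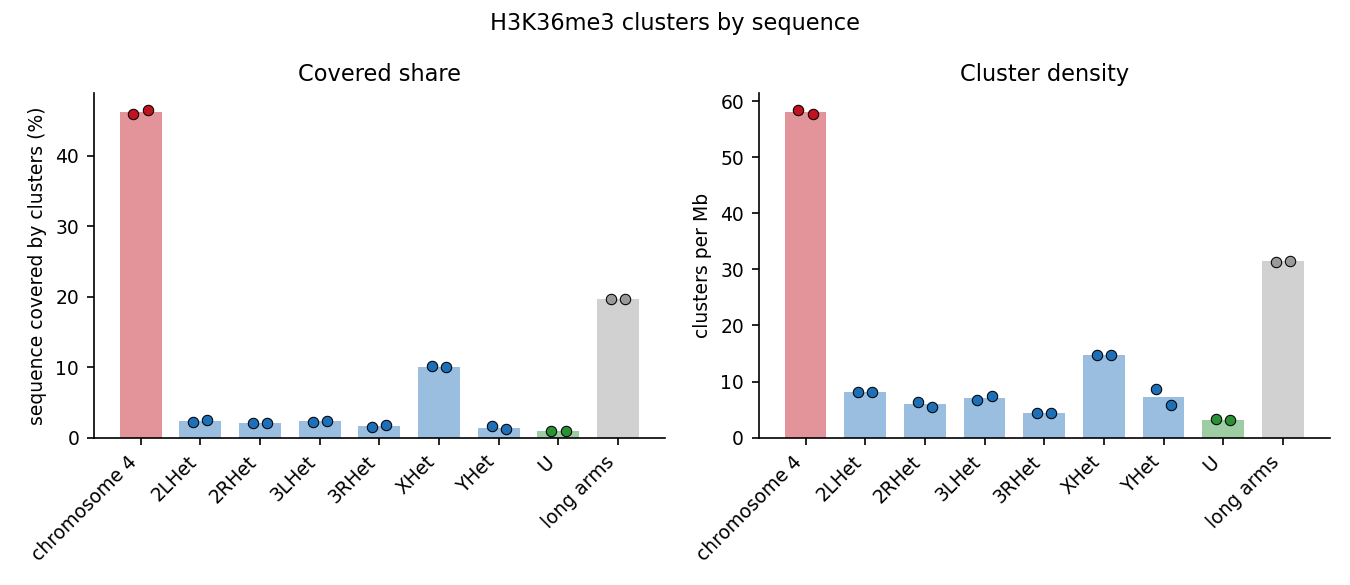
Share of each sequence covered by H3K36me3 clusters (left, %) and clusters per Mb (right) for chromosome 4, the 6 Het sequences, U and the 5 long arms as 1 class. Bars are means of 2 replicates and points are the replicates, which nearly coincide; chromosome 4 reached 46.0% and 46.5%, and U stayed under 1%.

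Taken over the 5 arms, the stretches next to the centromere lay between the arms as a whole and the Het sequences. In the 1 Mb of each long arm that adjoins the centromere, clusters covered 11.4% and 11.5% over the 5 arms. Single arms ranged from 2.90% ± 0.149 on 3L to 21.7% ± 0.171 on 3R (SD, n = 2). The end of 3L thus had 2.79% and 3.01% in replicates 1 and 2, beside 2.20% and 2.40% on 3LHet. The start of 3R had 21.6% and 21.9%, beside 1.57% and 1.72% on 3RHet.

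Clusters on chromosome 4 were wide, and those on Het and U were narrow. The median width was 7.51 and 7.35 kb on chromosome 4, 2.77 and 2.94 kb on Het and 2.35 and 2.34 kb on U, against 4.95 and 4.94 kb on the long arms. Of the chromosome 4 clusters, 27 of 79 in replicate 1 and 24 of 78 in replicate 2 were 8 to 16 kb wide, and 8 and 10 were wider still. On the Het sequences 2 clusters in each replicate reached 8 kb, and on U none did, against 7 and 1 in the combined list.

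Chromosome 4 differed from the long arms more in its long gaps than in its short ones. The median gap between neighbours was 3.99 and 4.27 kb on chromosome 4, against 6.06 and 6.03 kb on the long arms. The first quartile of the gaps was 1.39 and 1.70 kb on chromosome 4, against 1.42 and 1.40 kb on the long arms. The upper quartile was 7.06 and 6.94 kb on chromosome 4, against 23.5 and 23.3 kb on the long arms. Gaps under 1 kb made up 17.9% and 18.2% of those on chromosome 4, against 19.7% and 20.2% on the long arms. In the combined list this order was turned, with 24.7% on chromosome 4 and 20.7% on the long arms. No gap on chromosome 4 exceeded 100 kb in any list, whereas 6.94% and 6.87% of long-arm gaps did. All 14 bins of 100 kb along chromosome 4 held the midpoint of a cluster in every list, against 955 and 964 of 1194 bins on the long arms.

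On the Het sequences and U the spacing was wide and uneven. The median gap was 29.6 and 32.8 kb on Het and 90.5 and 86.1 kb on U. Gaps over 100 kb made up 26.9% and 28.0% of those on Het and 46.9% and 46.7% of those on U. Short gaps occurred on Het too, with 28.8% and 28.0% under 5 kb. In the combined list the Het median gap was 11.8 kb, and its difference from the long arms was 5.87 kb, against 25.2 kb over the replicates. Among the upper 50% by score, the differences in median gap were -7.90 kb on chromosome 4, 9.95 kb on Het and 233 kb on U, against -1.92, 25.2 and 82.3 kb over all clusters. The Het value among the upper 50% rests on a few gaps and differed in direction between replicates. On U and on the Het sequences scaffolds were joined in one coordinate line. A gap there can span several scaffolds and is a description of the coordinates only.

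Along chromosome 4 the marking was lowest at the first end and varied from window to window. In windows of 200 kb the covered share was 28.6% ± 1.38, 61.4% ± 0.166, 39.8% ± 0.262, 35.7% ± 0.260, 45.6% ± 0.724, 51.6% ± 0.434 and, in the last and shorter window of 152 kb, 65.6% ± 0.509 (SD, n = 2 each). Every window exceeded the 19.7% of the long arms in both replicates, and the windows differed among themselves by far more than the replicates did. The lowest window contained the first 127 kb, up to the first cluster wider than 10 kb, a border chosen after the values were seen. Clusters covered 14.3% and 18.1% of that stretch and were at most 5.09 and 5.23 kb wide, against 49.3% and 49.5% of the rest of the chromosome. The lack of clusters wider than 10 kb there follows from the border, and the low cover does so in part. The first cluster began at 32066 in replicate 1 and at 25649 in replicate 2, and the last ended 4.81 and 5.52 kb before the end of the sequence.

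**Figure D2:**
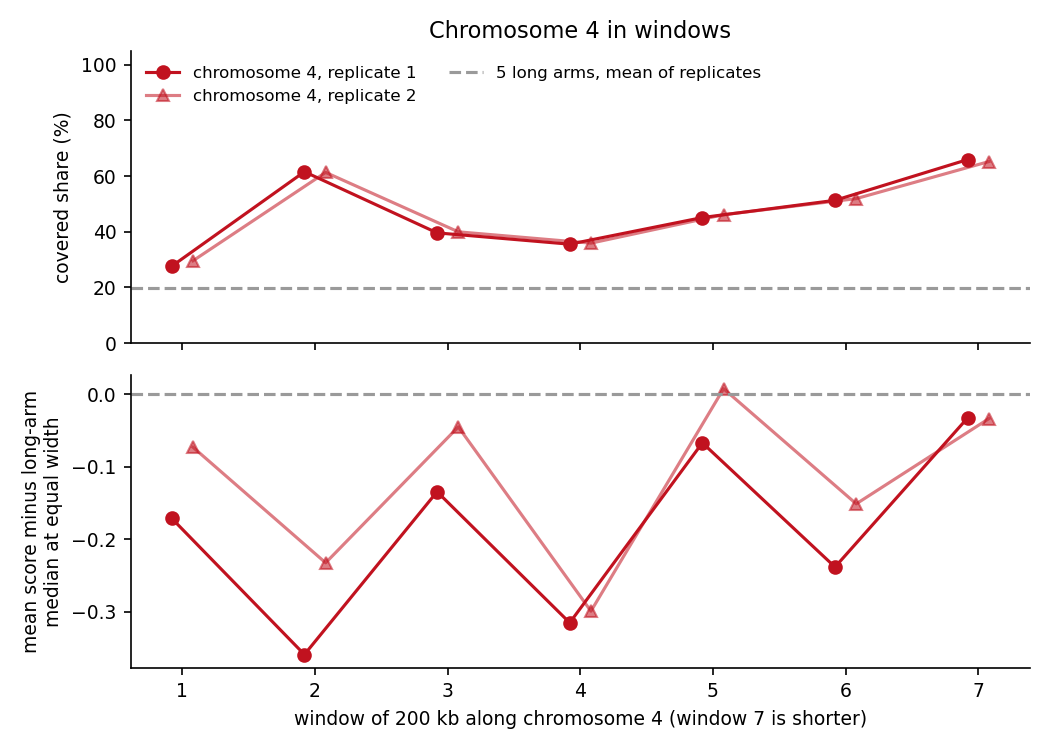
Chromosome 4 in 7 windows of 200 kb, the last one shorter: covered share (upper panel, %) and mean score minus the long-arm median at equal width (lower panel), for each replicate. All windows lay above the dashed long-arm share of 19.7%; window 4 had mean scores of -0.315 and -0.299 relative to the long arms at equal width, and window 7 of -0.0329 and -0.0339, and replicate 2 of window 5 (0.00729) was the 1 value above 0.

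The enrichment score is the authors' own value for each cluster, with no scale or log base given in the sources used here, and is used to describe and rank clusters within a list. Positions below are first and last bases in release 5 of the genome, with no strand, and the score of a replicate is that of its cluster with the longest overlap. The gene table used here was on release 6, so clusters carry no gene or exon names.

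The 5 highest-scoring chromosome 4 clusters of the combined list were all wide and were found in both replicates. The top one, from 666348 to 679964 (13.6 kb), had scores of 2.40 and 2.45 in replicates 1 and 2. It was followed by 874096 to 887596 (13.5 kb) with 2.35 and 2.32, and 153382 to 165454 (12.1 kb) with 2.54 and 2.58. The last of these had the highest scores of the chromosome in both replicates, and it overlapped 2 clusters of each replicate. The cluster from 933022 to 951160 scored 2.18 and 2.22. That from 579600 to 592070 scored 2.06 and 2.31, a wider spread between replicates than in the other 4.

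The widest chromosome 4 cluster had a low score for its width. It ran from 887884 to 914040 (26.2 kb) and began 0.287 kb after the second highest-scoring one, with scores of 1.73 and 1.79. Only 9.14% and 13.6% of the long-arm clusters in the same width class scored lower. The next widest, 1144374 to 1165348 (20975 bp), scored 1.86 and 1.99. The others were 127110 to 147946 (20.8 kb) with 2.17 and 1.96, 466818 to 487414 (20.6 kb) with 2.09 and 2.17, and 358714 to 378646 (19.9 kb) with 2.21 and 2.03. The first and the last of these 3 overlapped 2 clusters of replicate 1 and 1 of replicate 2.

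The 3 longest gaps of chromosome 4 in the combined list all lay in its middle part. They ran from 714373 to 797611 (83.2 kb), from 399193 to 456487 (57.3 kb) and from 503057 to 551383 (48.3 kb). The gap after the cluster at 824280 to 825854 was nearly as long as the third, at 48.2 kb. Replicate 1 lacked that cluster and had none between 808552 and 874568, a longer stretch than the second of these. The longest gap of each replicate was 83.4 and 83.3 kb. The longest gap of the long arms was 561 kb in replicate 1 and 562 kb in replicate 2.

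XHet and 2LHet had few clusters each. XHet carried its 3 clusters side by side, at 57668 to 69720 (scores of 1.45 and 1.52 in replicates 1 and 2), 75964 to 81982 (2.00 and 2.14) and 84306 to 87252 (1.76 and 1.64), with 57.7 kb before and 117 kb after them free of clusters. The middle one was the highest-scoring cluster of all 6 Het sequences, and the first was their widest, at 12.1 kb. 2LHet carried 3 clusters, at 18440 to 22050 (0.797 and 0.959), 34730 to 37510 (1.12 and 0.912) and 166098 to 169542 (1.66 and 1.84). Its last 199 kb held none.

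YHet had clusters only near its far end. All its clusters lay between 305768 and 341432 of a sequence of 347 kb in the combined list. They lay between 305751 and 341431 in replicate 1 and between 305937 and 338519 in replicate 2. Those at 305768 to 308148 (1.07 and 0.795) and 336440 to 338588 (0.837 and 1.02) were in both replicates. The one at 339572 to 341432 (1.08) was in replicate 1 alone. Those at 311644 to 313590 and 327200 to 328234, with combined scores of 0.554 and 0.669, were in neither. The flies were mixed adults and the labels do not state the share of males, which alone carry the Y.

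3RHet had no cluster in its first 1679 kb, in any list. In the combined list 10 of its 13 clusters lay between 1679384 and 1945940 and the other 3 between 2 and 2.5 Mb. 2RHet had clusters in 13 of 33 bins of 100 kb, with none between 0.5 and 1 Mb or between 2 and 2.5 Mb. 3LHet held the next highest scores of the Het sequences, at 594088 to 601834 (1.95 and 2.01), 706002 to 710522 (1.87 and 1.98) and 698954 to 703468 (1.85 and 1.84). These 3 lay within 0.5 to 1 Mb of that sequence, while 11 of its 22 combined clusters lay between 2 and 2.5 Mb. The widest clusters after that of XHet were 1935032 to 1945940 on 3RHet (10.9 kb) with 0.959 and 1.02, and 3148054 to 3158076 on 2RHet (10.0 kb) with 1.18 and 1.27. The cluster on 3RHet overlapped 2 clusters of replicate 1, and that on 2RHet overlapped 2 of replicate 2.

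U carried narrow clusters, some of them with high scores. The median score on U was 1.45 and 1.43 in replicates 1 and 2, below the 1.71 and 1.69 of the long arms. The highest-scoring cluster of the whole combined list lay there, at 6383936 to 6389126 (5.19 kb), with 2.67 and 2.86 in replicates 1 and 2. Others in both replicates were 8907360 to 8909746 (2.39 kb) with 2.52 and 2.67, 6556736 to 6561648 (4.91 kb) with 2.54 and 2.59, and 7541826 to 7545112 (3.29 kb) with 2.59 in each. No long-arm cluster of the same width class scored higher than these, apart from the third in replicate 1, where 99.7% scored lower. U held no cluster in its first 1091 kb, and 40 of its 49 combined clusters lay beyond 5 Mb, as did 26 of 33 in replicate 1 and 24 of 31 in replicate 2. The order of scaffolds on U has no chromosomal meaning.

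Median scores were higher at 4 to 8 kb than in narrower clusters on every class of sequence, so scores were compared at equal width. Long-arm clusters of each list were divided into 10 width classes of equal number, and the median long-arm score of its width class was subtracted from the score of each cluster. A value of 0 then means the score of a typical long-arm cluster of like width.

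At equal width, U clusters scored higher than long-arm clusters, and chromosome 4 and Het clusters scored lower. The mean difference on U was 0.500 in replicate 1 and 0.477 in replicate 2, or 0.489 ± 0.0163 (SD, n = 2). On chromosome 4 it was -0.194 and -0.117, or -0.156 ± 0.0544 (SD, n = 2). On the Het sequences it was -0.213 and -0.217, or -0.215 ± 0.00337 (SD, n = 2). The signs were the same in both replicates and in the combined list, and each mean lay further from 0 than the spread between replicates. Single clusters overlapped widely, with SDs over clusters of 0.542 and 0.559 on U, 0.349 and 0.335 on chromosome 4, 0.402 and 0.411 on Het, and 0.327 in both replicates on the long arms. Clusters of 1 library are not independent replicates.

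Counts set U apart from the other classes. Chromosome 4 and Het kept no fixed order in the share above the median. In each replicate Het had the larger share of the 2 in both the top 10% and the bottom 10%. On U, 28 of 33 clusters in replicate 1 and 25 of 31 in replicate 2 scored above the long-arm median of their width class, against 49.5% and 49.6% of all clusters in the lists. On chromosome 4 it was 22 of 79 and 29 of 78 (27.8% and 37.2%), and on Het 18 of 58 and 16 of 56 (31.0% and 28.6%). In the top 10% of their width class were 20 and 17 of the U clusters (60.6% and 54.8%), against 10.2% and 10.1% of all clusters. The top 10% held 3 and 4 of the chromosome 4 clusters (3.80% and 5.13%), below that background, and 5 and 6 of the Het clusters (8.62% and 10.7%), near it. In the bottom 10% were 20 and 15 on chromosome 4 (25.3% and 19.2%) and 20 and 18 on Het (34.5% and 32.1%), against 10.9% and 10.6% of all clusters. On U the bottom 10% held 3 and 2, near that background.

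**Figure D3:**
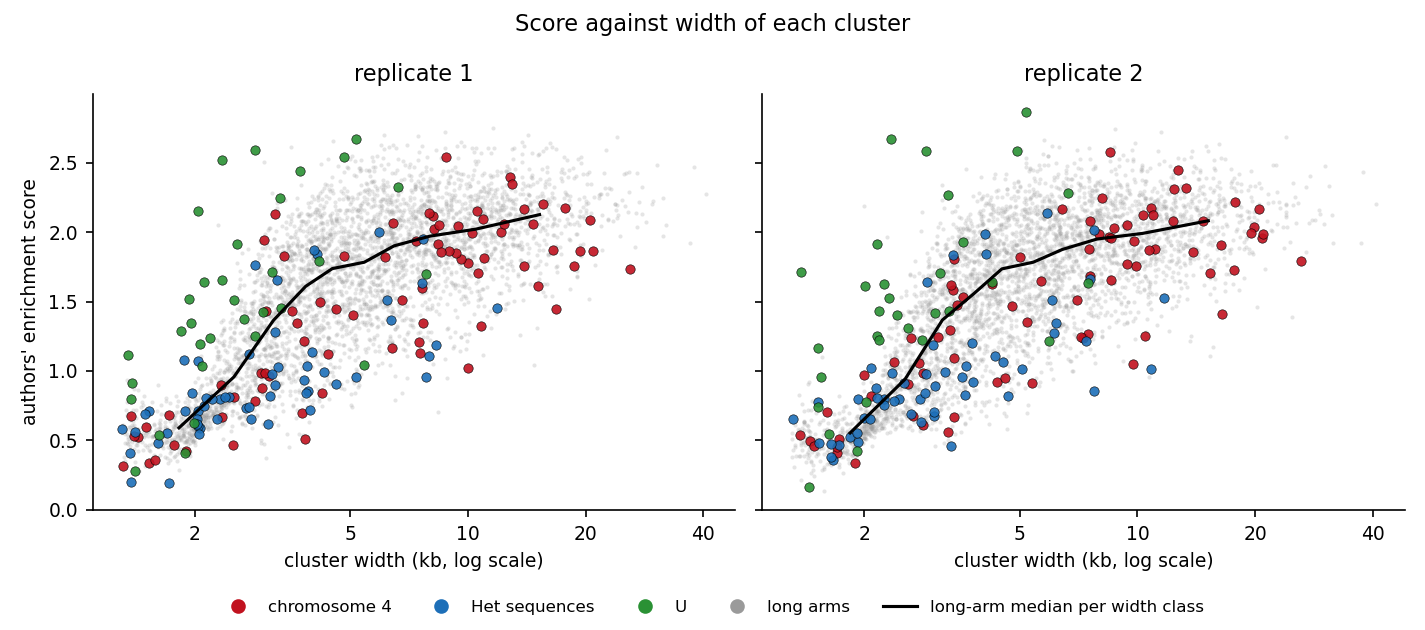
Authors' enrichment score against cluster width (kb, log scale) in replicate 1 (left) and replicate 2 (right), for clusters of chromosome 4, the Het sequences, U and the long arms, with the long-arm median of each of 10 width classes as a black line. At 2 to 4 kb the U medians were 1.64 and 1.48 against 1.19 and 1.17 on the long arms, and at 4 to 8 kb the Het medians were 1.44 and 1.31 against 1.83. These classes are broader than the 10 width classes, so widths can still differ within them.

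In raw median scores, U lay above the long arms, and chromosome 4 and Het below them, at 2 to 4 kb and at 4 to 8 kb. These classes each span several of the 10 width classes used above. Widths can differ between sequences within them, so these score differences are not at equal width and may partly reflect width. From 2 to 4 kb the median score was 1.64 and 1.48 on U (17 and 18 clusters), 0.974 and 1.08 on chromosome 4 (18 in each) and 0.807 and 0.838 on Het (32 and 29), against 1.19 and 1.17 on the long arms. From 4 to 8 kb it was 2.06 and 1.96 on U (6 in each), 1.47 and 1.51 on chromosome 4 (16 and 17) and 1.44 and 1.31 on Het (12 and 14), against 1.83 on the long arms in each. At 8 to 16 kb chromosome 4 came near the long arms, with 2.00 in each replicate against 2.03 and 1.99, while the 2 Het clusters of each replicate had a median of 1.32 and 1.27. Above 16 kb chromosome 4 was again lower, with 1.86 and 1.97 (8 and 10 clusters) against 2.18 and 2.12 on the long arms. Under 2 kb the long-arm medians were 0.553 and 0.508. There U was higher, with 0.857 and 0.738 (10 and 7 clusters), and chromosome 4 lower, with 0.493 and 0.494 (10 and 9). Het had 0.569 and 0.486 (12 and 11 clusters), so no direction held for Het at that width.

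The Het sequences were not alike. The mean difference at equal width was lowest on 3RHet, with -0.409 and -0.390, where 0 of 11 and 1 of 11 clusters exceeded the long-arm median. It was -0.311 and -0.344 on 2RHet and -0.193 and -0.149 on 3LHet. It was above 0 on XHet, with 0.151 and 0.196, and on YHet, with 0.406 and 0.354, each on 2 to 3 clusters per replicate. On 2LHet it was 0.100 in replicate 1 and -0.0525 in replicate 2, so no direction held. Within XHet the 3 clusters disagreed: the widest, at 57668 to 69720, lay above only 5.38% and 7.18% of long-arm clusters of its class and the narrowest, at 84306 to 87252, above 98.9% and 97.6%.

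Within 3LHet and U the difference also varied along the coordinates. On 3LHet it was 0.0835 and 0.157 between 0.5 and 1 Mb (4 clusters in each replicate) but -0.393 and -0.376 between 2 and 2.5 Mb (9 and 10 clusters). On U it was 0.947 and 0.831 between 8 and 9 Mb (6 and 7 clusters) but -0.0303 and -0.0418 between 1 and 2 Mb (5 in each). The latter mean joined unlike clusters, among them 1205636 to 1207830 (1.05 and 0.698) and 1178864 to 1187122 (-0.744 and -0.571). The order of scaffolds on U has no chromosomal meaning, so these stretches are coordinates only.

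In the 1 Mb of each long arm that adjoins the centromere, the mean difference was below 0 as well. Clusters there scored -0.205 and -0.174 relative to all long-arm clusters of equal width, with 110 and 108 clusters. The 5 arms ranged from -0.349 ± 0.0219 on 2R to -0.105 ± 0.0240 on X (SD, n = 2).

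**Figure D4:**
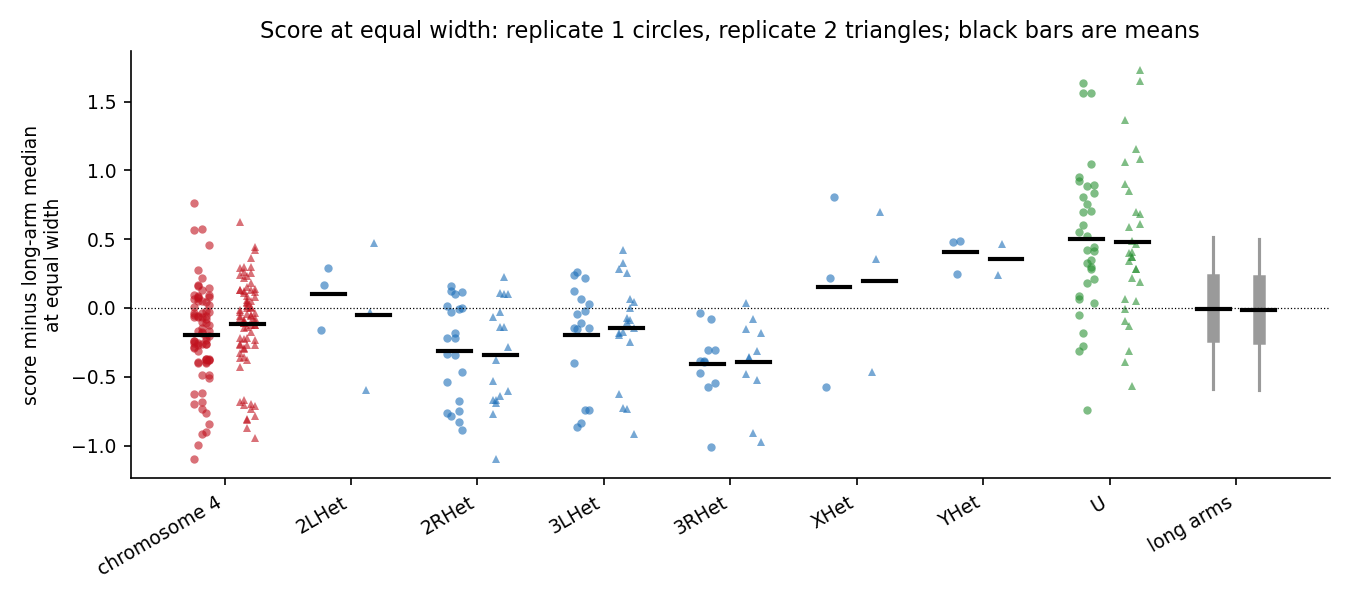
Score of each cluster minus the long-arm median at equal width, by sequence, for replicate 1 (circles) and replicate 2 (triangles), with black bars for means; for the long arms the thick bar spans the middle 50% of clusters and the thin line the middle 90%. Means were 0.500 and 0.477 on U, -0.409 and -0.390 on 3RHet, -0.311 and -0.344 on 2RHet, and above 0 on XHet and YHet.

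Both replicate lists held nearly the same clusters on chromosome 4, and somewhat less so on Het. For U the order relative to chromosome 4 depended on the overlap asked for. On chromosome 4, 78 of 79 replicate 1 clusters shared 1 bp or more with a replicate 2 cluster, against 98.1% of the whole replicate 1 list, and 76 of 78 replicate 2 clusters overlapped one of replicate 1, against 97.5% of the whole list. On Het it was 53 of 58 and 53 of 56, and on U 30 of 33 and 30 of 31. With an overlap of at least 50% of both clusters, the mean of both directions was 93.0% on chromosome 4, 86.0% on Het and 93.8% on U. No share at this overlap was computed for the long arms or the whole lists, so these values have no background. Of the bases in either list, 94.7% were in both on chromosome 4, 82.9% on Het and 88.9% on U, against 95.3% on the long arms. The chromosome 4 shares at 1 bp lay near those of the whole lists.

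Borders and scores of matched clusters were close. Where a cluster overlapped exactly 1 cluster of the other replicate, starts differed by a median of 92 bp on chromosome 4 (67 pairs), 89 bp on Het (47 pairs) and 40 bp on U (30 pairs), against 62 bp on the long arms (3395 pairs). Scores of these pairs correlated with Pearson's r of 0.972 on chromosome 4, 0.950 on Het and 0.941 on U, against 0.979 on the long arms. Spearman's rho was 0.955, 0.881 and 0.890 in the same order, against 0.978. These are descriptions across clusters that share 2 libraries.

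Of the pooled classes, U had the largest median difference in score between replicates. The median absolute difference was 0.121 on U, 0.0843 on chromosome 4 and 0.0940 on Het, against 0.0715 on the long arms. The median was larger still on YHet (0.228, 2 pairs), 2LHet (0.178, 3 pairs) and XHet (0.125, 3 pairs). A difference above 0.3 occurred in 4 of 30 pairs on U, 3 of 67 on chromosome 4 and 1 of 47 on Het, against 50 of 3395 on the long arms. The largest was at 9268458 to 9271012 on U, with 1.91 in replicate 1 and 1.22 in replicate 2. Replicate 2 was higher in 45 of 67 pairs on chromosome 4 and 30 of 47 on Het, but in 12 of 30 on U and 1399 of 3395 on the long arms. Along chromosome 4 it was higher in 7 of 8 pairs in the first window of 200 kb and in 5 of 13 in the last.

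Combined-list clusters lacking support from either replicate were frequent on U and Het. Among the 207 clusters described here, 39 (18.8%) overlapped no replicate cluster, against 5.14% of the combined list, and 151 (72.9%) overlapped a cluster of both replicates, against 90.8%. Clusters in neither replicate numbered 6 of 82 on chromosome 4 (7.32%), 17 of 76 on Het (22.4%) and 16 of 49 on U (32.7%), against 168 of 3819 on the long arms (4.40%). Of those on Het, 10 were on 2RHet. XHet and 2LHet had no such cluster. In the upper 50% of the combined list by score, the share was 31.2% on U (5 of 16), and 0 on chromosome 4 (of 41), on Het (of 7) and on the long arms (of 1949).

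The unsupported clusters of U differed in score from those elsewhere. On chromosome 4 they scored from 0.296 to 0.579, the highest being 1173708 to 1174790, 1241136 to 1242492 (0.453) and 57502 to 59030 (0.332). On Het they scored from 0.180 to 0.669, led by the YHet cluster at 327200 to 328234, 3LHet 1179626 to 1180778 (0.640) and 2RHet 3254664 to 3256406 (0.563). On U they reached 2.60, at 5211932 to 5212932, and 6 of the 16 had a score of 1 or more, among them 7584300 to 7586352 (2.26) and 7531124 to 7533140 (2.18). In the whole combined list 11 unsupported clusters scored 1 or more, and the 5 outside U, all on long arms, reached at most 1.14.

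The replicate lists held no cluster narrower than 1302 bp, whereas the combined list began at 1001 bp. Of the unsupported clusters, 1 of 6 on chromosome 4, 8 of 17 on Het and 6 of 16 on U were narrower than the replicate minimum, and so were 83 of 168 on the long arms. The highest one on U, of 1001 bp, was among them, while the next 2, of 2053 and 2017 bp, were not.

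Clusters that met 1 replicate list only made up 4.88% on chromosome 4, 11.8% on Het and 8.16% on U, against 3.80% on the long arms and 4.02% of the combined list. The share on chromosome 4 was thus near that of the whole list. Chromosome 4 had 4 in the combined list, led by 25598 to 27154 (0.386, replicate 2 alone). That at 551384 to 552620 (0.247) met only the edge of a wider replicate 2 cluster that belonged mainly to its neighbour, and 174532 to 176118 (0.226) was in replicate 1 alone. Het had 9, led by the YHet cluster at 339572 to 341432 (0.739), 3RHet 1692832 to 1695152 (0.424) and 3LHet 2250820 to 2252968 (0.417), which shared a replicate 2 cluster with its neighbour. U had 4, led by 7638808 to 7640186 (0.855), 8228190 to 8230104 (0.694) and 6732706 to 6734410 (0.612). These are combined scores.

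**Figure D5:**
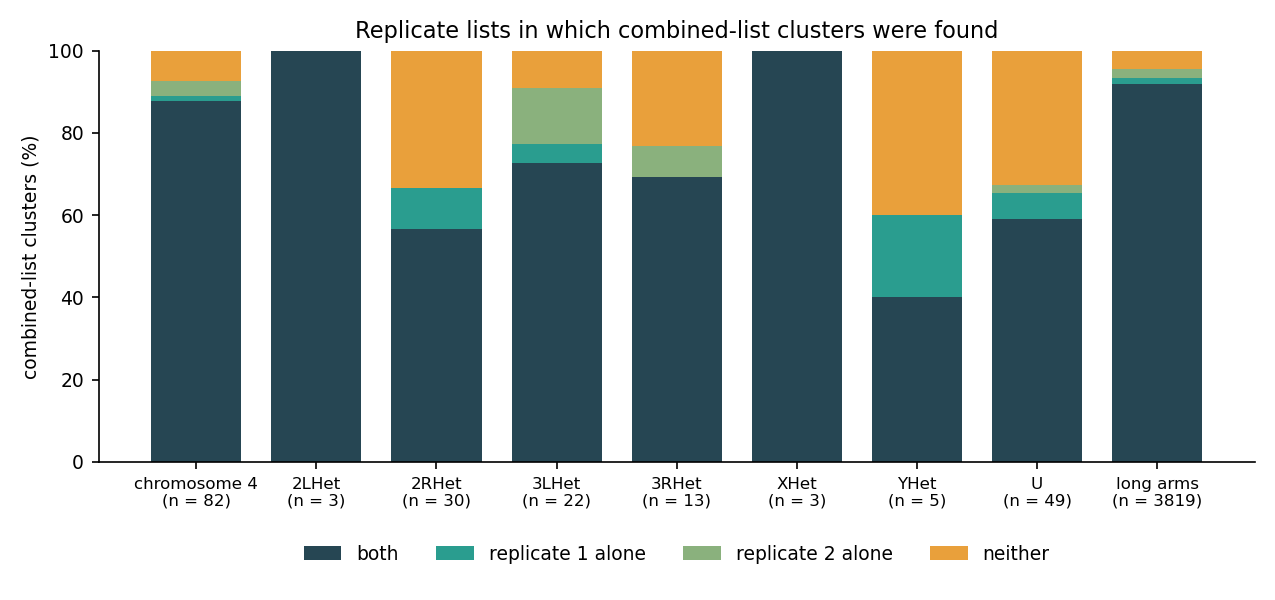
Share of combined-list clusters (%) by the replicate lists that held them (both, 1 of them, or neither), by sequence, with the number of clusters under each bar. Neither replicate held 32.7% of the U clusters and 7.32% of those on chromosome 4, against 4.40% on the long arms.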

How the data were processed

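The authors deposited 3 lists of clusters, for 2 precipitated libraries and the replicate set, with an enrichment score per cluster whose scale is not stated. Positions are on release 5, per the file headers. Bowtie 0.12.7 is named without a role, per the submitters' processing notes. The labels and headers name no caller, threshold, rule for repeatedly mapping reads or way of combining replicates. Read depth is unknown, so no counting interval was computed, and the inputs, which per the labels served the authors' replicate lists, have no list analysed here. The 1 region marked as depleted was left out. Widths, gaps and covered shares were computed with numpy 2.4.6 and pandas 2.3.3, with lengths from the file headers. The score comparison at equal width was checked on simulated scores, drawn around the long-arm median of each width class with a known offset. These scores had no trend with width within a class. The check therefore shows that the calculation returns the offset, and cannot show leftover differences in width. Named clusters were the 5 highest-scoring of chromosome 4, Het and U, the 5 widest of chromosome 4 and 3 widest of Het, all of sequences with 5 or fewer, and up to 3 per class in 1 or neither replicate. The members, the comparisons and this rule were chosen with earlier results of these data known. Alternatives were the combined list, the upper 50% by score, other references, other width corrections, an overlap of 50% and each replicate alone.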

Additional observations from a re-analysis of the deposited data

How the results depend on the processing

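The 78 alternative values of the 15 results that are signed differences kept their sign. Apart from the combined list and the single replicates, each value was a mean over replicates. A sign that differed between replicates is therefore not counted, as for the Het median gap in the upper 50% by score. The other 6 results are shares, which carry no sign. Of 96 alternative values in all, 50 lay within the spread between replicates (or, for unsupported clusters, the exact binomial interval) and 46 did not. Of the 96, 36 were single replicates, which with 2 lists lie within 1 SD of the mean by construction. The cause of the other shifts was not tested. Values are differences from the long arms unless stated.

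With the combined list, covered share was 28.8, -17.8 and -19.4 percentage points for chromosome 4, Het and U, density 28.6, -23.9 and -27.2 clusters per Mb, and median gap -2.58, 5.87 and 77.0 kb. Median width was -2.37 kb on Het and -2.85 kb on U, and score at equal width -0.268 and 0.538. The difference in median gap on Het was 25.2 kb over the replicates, and the combined list holds 76 clusters there, against 58 and 56.

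With the upper 50% of each list by score, covered share was 19.5, -13.4 and -13.2 points, density 12.2, -15.4 and -14.9 per Mb, median gap -7.90, 9.95 and 233 kb, and median width 3.31, -3.13 and -3.88 kb. The Het median gap here rests on a few gaps, and its replicates differed from the long arms in opposite directions. The overlap of replicates itself was then 92.2%, 80.0% and 82.5%, with no value computed for the long arms. The share of unsupported clusters was 0% on chromosome 4 and on Het, as on the long arms, while on U it was 31.2%. Fewer clusters are kept here by construction.

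Against the autosomal arms alone, covered share was -17.5 points for Het and -18.7 for U, and score at equal width -0.192 and 0.518. Against the centromere-adjoining 1 Mb of each arm, covered share was 34.8, -9.26 and -10.5 points. Score at equal width for Het and U was -0.290 and 0.374 with a straight line on log10 width, -0.161 and 0.423 with medians and -0.267 and 0.565 with clusters of 2 kb or wider. With 20 width classes, chosen after seeing the data, it was -0.224 for Het and within the spread for the others. A mutual overlap of 50% gave 93.0% for chromosome 4 and 86.0% for Het, while U stayed at 93.8%, with no value computed for the long arms. No paired analysis was possible because the input libraries, which share replicate numbers with the precipitated ones, have no list analysed here.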

Other observations

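The start and end of all 4026 enriched clusters of the combined list were even numbers, whereas 52.2% of starts in replicate 1 and 49.7% in replicate 2 were even, so borders in the combined list lie on a grid of 2 bp.

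Among the last 7 matched pairs along chromosome 4, a number chosen after the values were seen, replicate 1 scored higher in 5, with a median of -0.203 for replicate 2 minus replicate 1. Before them, replicate 1 was higher in 17 of 60 pairs, with a median of 0.0441. With 1 library per replicate this has no test.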
